A study of Mus musculus with 9 samples.

Results

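The genes of antigen presentation by the major histocompatibility complex (MHC, called H2 in mice) were examined in the injured mouse lung. The set holds 31 genes taken from the deposited expression table by their symbols, of 52381 genes in all. Its rule names genes by function: 19 genes of the class I route with its peptide supply and loading, 10 of the class II route, and the interferon-regulatory factors Irf1 and Irf8. Each symbol occurred once in the table, and 20 of the 31 genes lie on chromosome 17, where the mouse MHC is.

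The study sequenced lung RNA from mice whose lungs were acutely injured (ALI) with lipopolysaccharide (LPS), the endotoxin of Gram-negative bacteria, to ask what trimethylamine N-oxide (TMAO), a metabolite derived from gut bacteria, does in that injury. The group called LPS-ALI here has 4 mice given LPS without TMAO, and the group called TMAO has 5 mice given LPS and TMAO. Every library therefore comes from an injured lung, and lungs without LPS are not analysed here. Each library comes from a separately numbered mouse. The sources used here do not give the strain, sex and age of the mice or the dose, route and timing of LPS and TMAO.

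Class I molecules show peptides from inside the cell to CD8 T cells and are made by almost every nucleated cell. Their peptides are cut by the proteasome, moved into the endoplasmic reticulum by a transporter and loaded onto a heavy chain paired with beta-2 microglobulin. Class II molecules show peptides from taken-up material to CD4 T cells and are made mainly by dendritic cells, B cells and macrophages, and in the lung also by alveolar type 2 cells. Interferon gamma induces both routes through the transactivators Nlrc5 for class I and Ciita for class II.

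Parts of the promoters are shown first because both routes are read from related DNA elements. The part of these elements in the comparison of the groups was not tested. The sequences come from RefSeq on GRCm38.p6, in a window from 250 bases before to 50 bases after the annotated start of a gene, and 25 of the 31 genes were matched. The genes not matched were Tap2, Tapbpl, Nlrc5, H2-Ab1, Cd74 and Ciita. Each sequence is written 5′ to 3′ on the strand of its gene. In these class II promoters the capitals mark TGANG, the core of the X2 box, and ATTGG, the Y box (a reversed CCAAT), 17 to 22 bases apart.
H2-Aa: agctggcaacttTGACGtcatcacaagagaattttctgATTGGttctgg
H2-Eb1: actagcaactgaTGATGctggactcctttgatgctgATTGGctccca
H2-DMb1: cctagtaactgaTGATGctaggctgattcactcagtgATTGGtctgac
H2-Ob: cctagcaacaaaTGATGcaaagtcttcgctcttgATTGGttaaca
These stretches are chr17:34287861-34287909 on the minus strand for H2-Aa and, on the plus strand, chr17:34305772-34305818 for H2-Eb1, chr17:34153093-34153140 for H2-DMb1 and chr17:34238814-34238858 for H2-Ob.

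In the class I promoters the capitals mark, in order, GGGGATT with any base and CC after it (a kappa B element), the reverse complement of GAANTGAAA (an interferon response element), and the same X2 and Y boxes. The B2m promoter held the X2 and Y pair without the others.
H2-K1: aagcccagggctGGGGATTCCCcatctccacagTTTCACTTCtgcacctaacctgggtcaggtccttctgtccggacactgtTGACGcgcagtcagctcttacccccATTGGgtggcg
H2-D1: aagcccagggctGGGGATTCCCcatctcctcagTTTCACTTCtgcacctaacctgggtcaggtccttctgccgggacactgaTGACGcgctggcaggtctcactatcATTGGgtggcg
H2-Q7: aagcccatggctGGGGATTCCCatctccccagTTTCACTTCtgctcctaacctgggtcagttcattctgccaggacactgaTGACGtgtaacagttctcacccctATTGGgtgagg
B2m: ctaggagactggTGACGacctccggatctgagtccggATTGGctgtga
These are chr17:34000353-34000470 on the minus strand for H2-K1 and, on the plus strand, chr17:35262911-35263028 for H2-D1, chr17:35439010-35439125 for H2-Q7 and chr2:122147597-122147644 for B2m. The motifs were searched on both strands, and their spellings were chosen after the sequences had been read. The X2 and Y pair occurred in 6 of 16 class I and 5 of 7 class II promoters that could be read, against 1.92% of 27025 promoters of the same length. The kappa B letters occurred in 5 of 16 class I and 0 of 7 class II promoters, against 0.318% of all. The interferon response letters were found in 6 of 16 and 0 of 7, against 2.15% of all. TTCNNNGAA, the letters of a gamma-activated site, were in 2 of 16 and 1 of 7, against 9.55% of all. These matches describe letters in the windows and are not measured binding sites.

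The deposited values are FPKM, fragments scaled to the length of the gene and the depth of the library. No read totals are stated. From the spacing of the lowest values the depth was estimated at 5520000 to 11400000 fragments for the LPS-ALI libraries and 4460000 to 7870000 for the TMAO libraries. This estimate uses annotated exon lengths, and 56.2% to 65.4% of low values came within 0.2 of a whole fragment, so it is approximate. TMAO 5 was the shallowest library and held 8846 genes at or above an FPKM of 1, where the other libraries held between 11158 and 12239. It also had the lowest FPKM of 25 of the 31 antigen presentation genes, while LPS-ALI 4 had the highest of 14. The codes in the sample descriptions begin with X for LPS-ALI 3 and 4 and with B for the other 7 libraries. What the code means was not stated, and X occurs in the LPS-ALI group only. Within the B-coded libraries LPS-ALI 1 and 2 can be compared with the 5 TMAO lungs, and that comparison is given as the value without the X-coded libraries. The extraction protocol names platelets where the tissue label names lung. The summed FPKM of 8 alveolar type 2 markers was 1106 to 14173 in a library. That of 6 platelet markers was 31.8 to 76.1 in LPS-ALI and 19.2 to 27.8 in TMAO. Relative to the median gene of each library, the mean of the 5 tested platelet markers overlapped between the groups through TMAO 5 only. It was -1.11, -1.23, -1.32, -1.39 and -0.29 in TMAO 1 to 5 and -0.71 to -0.14 in the LPS-ALI libraries. All 5 tested platelet markers lay below the median gene in TMAO, at a median of -0.56, and their part in the results was not tested.

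No antigen presentation gene passed the test between the groups. Relative to the median tested gene, 22 of the 27 tested members were lower in TMAO, where 50% of all tested genes are by construction. These included all 6 tested class II genes, all 5 of the immunoproteasome and PA28, and Irf1 and Irf8. The 16 tested genes listed with the constitutive proteasome were lower too. In whole lung, fewer cells of a type and less RNA per cell cannot be told apart. Of the 31 genes, 27 reached an FPKM of 1 in 4 or more libraries and were tested with limma on log2(FPKM + 1), a scale that understates the change of low genes. None of the 27 (0 of 27) passed an adjusted p of 0.05, and 0 of all 11817 tested genes did (0%; smallest limma adjusted p = 0.382). An unadjusted limma p under 0.05 was reached by 3 of the 27, Nlrc5, Psme2 and Irf8, each with a lower TMAO mean, against 3.35% of all tested genes in either direction and 2.93% with a lower TMAO mean. That count was 9 without LPS-ALI 3, 0 without LPS-ALI 4, 0 without TMAO 1, 1 without TMAO 5, 5 without TMAO 4 and 2 without LPS-ALI 1 or the X-coded libraries.

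The median tested gene itself was 0.17 log2 units lower in TMAO than in LPS-ALI (-0.17). This shift was 0.050 without TMAO 5 and -0.30 without TMAO 4, and it was -0.0047 under median-of-ratios scaling and 0.0060 under quantile normalization. Differences are therefore given relative to the median tested gene, as TMAO minus LPS-ALI in log2 units, while each limma p tests the unshifted difference. On this scale 22 of the 27 genes lay below the median gene and 5 above it, with a median of -0.36, where by construction 50% of all tested genes lie below. All 6 tested class II genes lay below, with a median of -0.38, and 14 of the 19 class I genes did, with a median of -0.19. The 6 class II genes stayed below the median gene under each alternative run, including each scaling, whereas the class I count ran from 11 to 19 of 19. The class II median was -0.24 without LPS-ALI 1 and -0.66 without LPS-ALI 3, and the class I median was -0.12 without TMAO 5 and -0.34 without LPS-ALI 3. No test was made of a list as a whole.

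**Figure D1:**
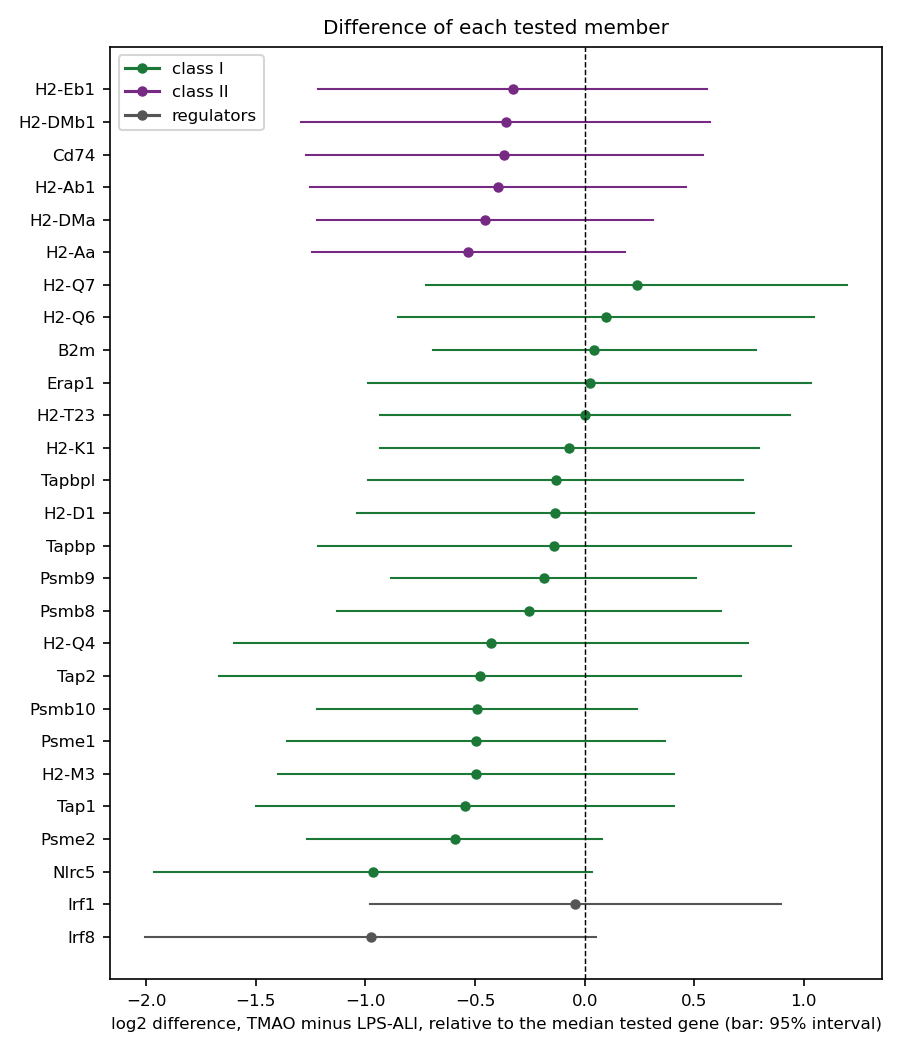
Difference of each of the 27 tested antigen presentation genes between TMAO (n = 5) and LPS-ALI (n = 4), in log2(FPKM + 1) units relative to the median tested gene; points are estimates and bars are limma 95% intervals. All 27 intervals cross 0, and the 6 class II points lie between -0.53 and -0.33.

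The classical class II chains were abundant in both groups, with lower TMAO means that did not pass the test. H2-Aa encodes the alpha chain of the I-A molecule (chr17:34282744-34287823, minus strand). Its FPKM was 150.92, 111.43, 59.39 and 114.19 in LPS-ALI 1 to 4 and 52.61, 83.60, 57.26, 78.22 and 51.23 in TMAO 1 to 5. The group means were 109 ± 37.6 (SD, n = 4) and 64.6 ± 15.2 (SD, n = 5). In all, 3 LPS-ALI lungs lay above every TMAO lung, and LPS-ALI 3 lay among the TMAO lungs, so the groups overlapped. The relative difference was -0.53 (SE 0.34; limma unadjusted p = 0.0540, adjusted p = 0.998). It was -0.81 without the X-coded libraries, -0.73 without LPS-ALI 3 and -0.39 without LPS-ALI 1.

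H2-Ab1, the beta chain that pairs with H2-Aa, had an FPKM of 117.16, 83.56, 34.29 and 66.58 in LPS-ALI and 42.32, 60.06, 48.10, 69.79 and 24.41 in TMAO. LPS-ALI 1 and 2 were the highest lungs, and LPS-ALI 3 was lower than 4 of the 5 TMAO lungs. Means were 75.4 ± 34.5 and 48.9 ± 17.4 (SD, n = 4 and 5), and the relative difference was -0.40 (limma adjusted p = 0.998). It was -0.87 without the X-coded libraries and -0.18 without LPS-ALI 1.

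H2-Eb1, the beta chain of the I-E molecule, had an FPKM of 93.32, 53.70, 25.64 and 73.17 in LPS-ALI and 33.59, 58.79, 37.65, 56.24 and 21.44 in TMAO. LPS-ALI 1 and 4 were highest, and the lower LPS-ALI lungs lay within the TMAO range. Its relative difference was -0.33 (limma adjusted p = 0.998), -0.12 without LPS-ALI 1 and -0.63 without LPS-ALI 3. H2-Ea, the alpha chain of I-E and not a member of the set, was listed at 0 in all 9 libraries.

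Cd74, the invariant chain that fills the class II groove until peptide is loaded, was the most abundant class II gene per length. Its FPKM was 279.10, 249.66, 99.60 and 259.47 in LPS-ALI and 111.94, 249.90, 152.36, 212.46 and 63.01 in TMAO. The LPS-ALI lungs other than LPS-ALI 3 lay close together, and TMAO 2 and 4 came near them, so the groups overlapped. Means were 222 ± 82.5 and 158 ± 75.1 (SD, n = 4 and 5). Set against the median gene, TMAO minus LPS-ALI was -0.37 (limma adjusted p = 0.998), and -0.65 without LPS-ALI 3.

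The peptide editor H2-DM, which exchanges the invariant chain remnant for peptide, was present at a lower level. Its alpha chain H2-DMa had an FPKM of 9.26, 7.56, 4.62 and 8.44 in LPS-ALI and 5.02, 7.27, 4.57, 3.44 and 2.60 in TMAO. TMAO 2 lay near LPS-ALI 2, and LPS-ALI 3 lay among the other TMAO lungs. Its relative difference was -0.45 (limma adjusted p = 0.998) and -0.25 without TMAO 4. The beta chain H2-DMb1 ranged more widely in LPS-ALI, from 3.38 to 17.18 FPKM (mean 10.4 ± 6.06 SD, n = 4), than in TMAO, from 2.99 to 7.53 (6.22 ± 1.97 SD, n = 5), with a relative difference of -0.36. That difference was -0.11 without LPS-ALI 4, -0.16 without TMAO 1, -0.21 without TMAO 4, -0.23 without LPS-ALI 1, -0.65 without TMAO 5 and -0.69 without LPS-ALI 3. Its near copy H2-DMb2 ranged from 0.94 to 2.45 FPKM in LPS-ALI and from 0.61 to 1.19 in TMAO. The copies share 15.8% of the 75-base windows of H2-DMb1, so reads may be split between them.

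Ciita, H2-DMb2, H2-Oa and H2-Ob did not pass the filter on low values. Ciita, the master transactivator of class II genes (chr16:10480059-10528418), had an FPKM of 1.20, 0.23, 0.21 and 0.73 in LPS-ALI and 0.42, 0.48, 0.33, 0.90 and 0.35 in TMAO. LPS-ALI 1 held the highest value and LPS-ALI 2 and 3 the lowest, so the LPS-ALI lungs enclosed all TMAO lungs. These values rest on an estimated 15 to 65 fragments per library. H2-Oa and H2-Ob, the chains of the DM inhibitor H2-DO, had 0 to 0.82 and 0.08 to 0.77 FPKM over the 9 libraries, an estimated 0 to 9 and 3 to 35 fragments. Such low values limit what a comparison of these genes can show. In a fit without the filter the unshifted log2 difference was -0.057 for Ciita, -0.30 for H2-DMb2, -0.24 for H2-Oa and 0.0022 for H2-Ob, with limma adjusted p of at least 0.906.

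**Figure D2:**
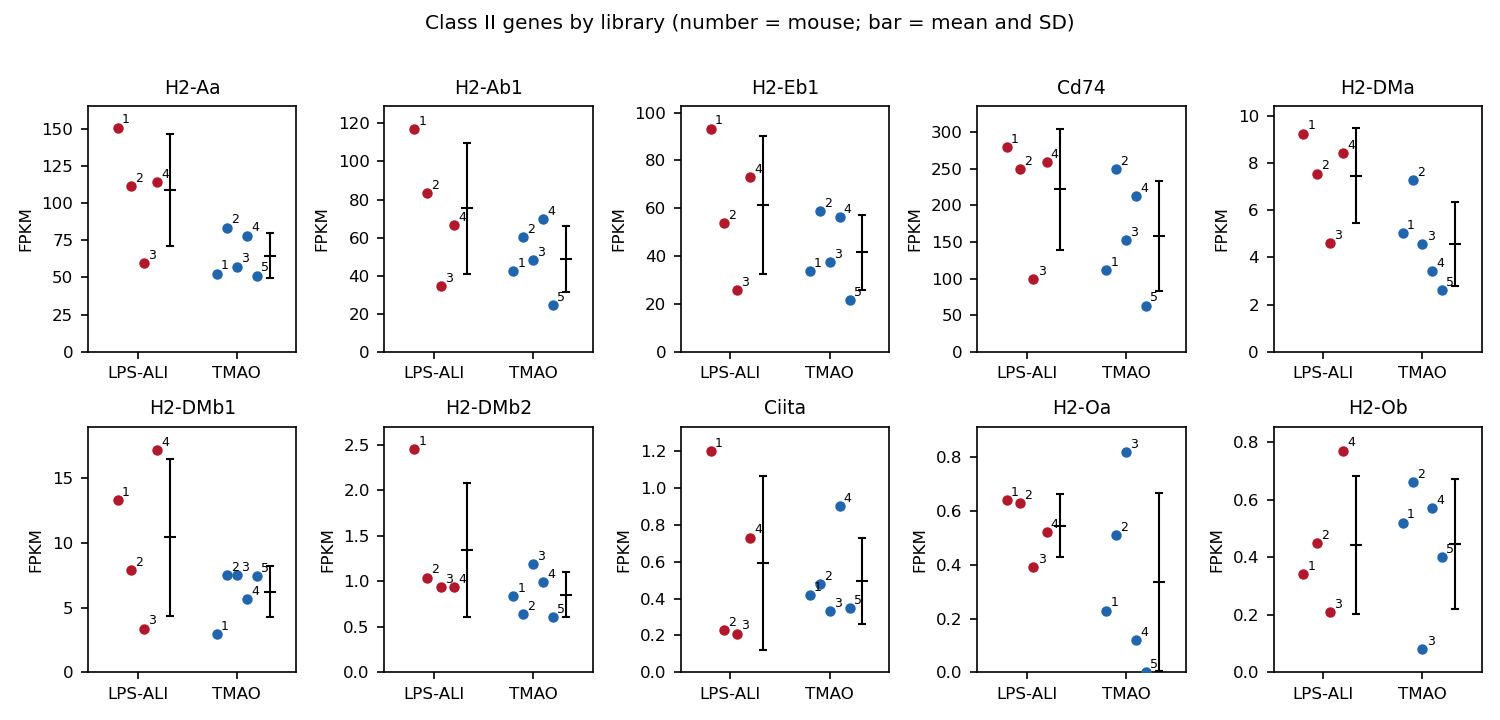
FPKM of the 10 class II genes in each library, with the number of the mouse beside its point and the group mean and SD as a bar (LPS-ALI n = 4, TMAO n = 5); each axis starts at 0. For H2-Aa, 3 LPS-ALI lungs lie above every TMAO lung and LPS-ALI 3, at 59.39, lies among them.

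B2m, H2-K1 and H2-D1 had the highest mean FPKM of the set, and their group means differed by less than the spread between mice. B2m, the light chain shared by all class I molecules (chr2:122147686-122153083), had an FPKM of 2286.53, 2529.11, 860.73 and 2783.44 in LPS-ALI and 1556.08, 2490.88, 1297.94, 2427.56 and 1422.56 in TMAO. LPS-ALI 3 was the lowest of all 9 lungs and the other LPS-ALI lungs lay level with TMAO 2 and 4. Means were 2115 ± 860 and 1839 ± 574 (SD, n = 4 and 5), and the relative difference was 0.045 (limma adjusted p = 0.998), with a 95% interval from -0.69 to 0.78. It was -0.28 without LPS-ALI 3.

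H2-K1, the heavy chain H-2K (chr17:33996017-34000347, minus strand), had an FPKM of 1360.24, 1380.78, 774.07 and 563.22 in LPS-ALI and 942.45, 1026.81, 829.49, 1376.07 and 307.31 in TMAO. LPS-ALI 1 and 2 and TMAO 4 were alike at the top, and the X-coded LPS-ALI lungs were below 4 of the 5 TMAO lungs. Relative to the median gene the difference was -0.070 (95% interval -0.93 to 0.79; limma adjusted p = 0.998). It was 0.074 under quantile normalization and -0.55 without the X-coded libraries.

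H2-D1, the heavy chain H-2D, had an FPKM of 747.61, 695.74, 327.40 and 641.40 in LPS-ALI and 521.50, 589.62, 469.59, 928.04 and 163.39 in TMAO. TMAO 4 was the highest lung and TMAO 5 the lowest, so the TMAO lungs enclosed the LPS-ALI lungs. Its relative difference was -0.13 (limma adjusted p = 0.998), 0.024 without TMAO 5 and -0.34 without LPS-ALI 3. Among the non-classical heavy chains, H2-T23, the Qa-1 molecule that presents leader peptides, had means of 130 ± 54.0 and 120 ± 55.5 FPKM in LPS-ALI and TMAO (SD, n = 4 and 5).

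The remaining heavy chains fell on both sides of the median gene. H2-Q6 and H2-Q7 lay above it by 0.097 and 0.24, with means of 55.2 ± 16.3 and 59.6 ± 35.7 FPKM for H2-Q6 and 61.4 ± 27.8 and 68.5 ± 41.2 for H2-Q7 in LPS-ALI and TMAO (SD, n = 4 and 5), and without the X-coded libraries they lay at -0.14 and -0.29. H2-Q4 lay at -0.43, and at -0.11 without TMAO 5, where it had 18.61 FPKM against 94.75 to 212.17 in the other TMAO lungs. H2-M3, which presents formylated peptides, lay at -0.49, with means of 9.61 ± 2.47 and 6.35 ± 3.47 FPKM (SD, n = 4 and 5). Over the 7 heavy chains, 4 lay below and 3 above the median gene, with a median of -0.070. Of the 75-base windows of H2-Q6 and H2-Q7, 17.9% and 16.95% also occur in transcripts of other genes, as do 3.10% to 7.02% of those of H2-K1, H2-D1, H2-T23 and H2-Q4, so values of these paralogs are uncertain.

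Genes of peptide transport and loading had wide spreads. Tap1, a subunit of the peptide transporter, had an FPKM of 7.60, 8.13, 9.34 and 18.80 in LPS-ALI and 5.12, 8.37, 7.95, 10.08 and 1.67 in TMAO. LPS-ALI 4 stood far above and TMAO 5 far below the other 7 lungs, which overlapped. The relative difference was -0.55 (limma adjusted p = 0.998), -0.31 without LPS-ALI 4 and -0.15 without the X-coded libraries. Exons of Tap1 and Psmb9 overlap on opposite strands, as exons of H2-Q4, Tap2, Tapbp, Psmb8, Psme1, Erap1, Nlrc5, H2-DMa, H2-Oa, Ciita and Irf1 do with other genes. The strand setting of the counting is not stated, so reads of shared exons may have been counted for either gene.

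The other subunit, Tap2, ranged from 10.46 to 12.47 FPKM in LPS-ALI and from 0.62 to 18.98 in TMAO. Its lowest and highest values were both in TMAO lungs, and its relative difference of -0.48 was -0.12 without TMAO 5. Tapbp (tapasin), which holds the heavy chain at the transporter, lay at -0.14 (83.7 ± 35.7 and 76.5 ± 47.2 FPKM). Tapbpl, a protein related to tapasin, lay at -0.13 (8.97 ± 4.35 and 6.95 ± 2.64). Erap1, the aminopeptidase that trims peptides in the endoplasmic reticulum, lay at 0.022 (7.00 ± 2.46 and 7.03 ± 4.12), each mean ± SD with n = 4 and 5.

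All 5 genes of the immunoproteasome and its activator PA28 lay below the median gene, with a median of -0.49, and Psmb8 lay above it at 0.070 when LPS-ALI 4 was left out. Psme2, the beta subunit of PA28 (chr14:55587441-55591113, minus strand), had an FPKM of 204.99, 179.02, 167.83 and 326.39 in LPS-ALI and 108.03, 135.76, 156.13, 157.64 and 82.71 in TMAO. Every TMAO lung lay below every LPS-ALI lung, and Psme2 was the only member whose FPKM did not overlap between the groups; 1.36% of all tested genes had no overlap with the lower values in TMAO and 0.118% with the higher. Means were 220 ± 72.9 and 128 ± 32.3 (SD, n = 4 and 5), and the relative difference was -0.59 (SE 0.32; limma unadjusted p = 0.0289, adjusted p = 0.998). It was -0.42 without LPS-ALI 4. Psme2 shares 22.9% of its 75-base windows with Psme2b, which had 0.93 to 3.53 FPKM.

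Psme1, the alpha subunit of PA28, had an FPKM of 181.82, 193.02, 143.47 and 432.86 in LPS-ALI and 135.43, 166.33, 179.77, 194.84 and 59.03 in TMAO. LPS-ALI 4 was far above and TMAO 5 far below the rest, and the other 7 lungs overlapped. Set against the median gene, TMAO minus LPS-ALI was -0.49 (limma adjusted p = 0.998), and -0.20 without LPS-ALI 4.

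Psmb10, a catalytic subunit of the immunoproteasome (chr8:105935735-105938444, minus strand), had an FPKM of 121.87, 110.71, 102.50 and 144.09 in LPS-ALI and 71.35, 79.15, 104.78, 105.18 and 37.44 in TMAO. TMAO 3 and 4 lay just above LPS-ALI 3, the lowest of its group. The relative difference was -0.49 (SE 0.34; limma unadjusted p = 0.0722, adjusted p = 0.998), and it lay between -0.59 and -0.44 when any 1 library was left out.

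Psmb8, another catalytic subunit, had an FPKM of 148.11, 140.21, 59.76 and 295.46 in LPS-ALI and 96.82, 119.36, 127.97, 127.51 and 61.38 in TMAO. Both its lowest and its highest lung were X-coded LPS-ALI libraries. Psmb9, the remaining catalytic subunit, had an FPKM of 49.00, 38.01, 27.27 and 52.44 in LPS-ALI and 24.36, 40.77, 30.01, 37.78 and 26.87 in TMAO. Its groups overlapped through LPS-ALI 2 and 3. The relative differences were -0.25 for Psmb8 and -0.19 for Psmb9 (limma adjusted p = 0.998 for each). Without 1 library the difference of Psmb9 ran from -0.097, without TMAO 1, to -0.35, without TMAO 5.

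Immunoproteasome subunits replace the constitutive subunits Psmb5, Psmb6 and Psmb7, and the log2 FPKM ratio of each to its counterpart is free of the scaling of the library. The ratio of Psmb8 to Psmb5 was 0.87 ± 0.78 in LPS-ALI and 0.99 ± 0.23 in TMAO (SD, n = 4 and 5; exact two-sided permutation p = 0.825). That of Psmb9 to Psmb6 was -1.57 ± 0.18 and -1.53 ± 0.41 (exact permutation p = 0.889). That of Psmb10 to Psmb7 was 0.65 ± 0.31 and 0.35 ± 0.30 (exact permutation p = 0.190, adjusted over 5 ratios p = 0.476). The difference of the last ratio, -0.30, was -0.17 without LPS-ALI 3 and -0.19 without TMAO 5. The groups overlapped in all of these ratios.

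A further 2 ratios compared the routes and the class II editor with its inhibitor. H2-Ab1 to B2m was -4.81 ± 0.46 in LPS-ALI and -5.26 ± 0.41 in TMAO (SD, n = 4 and 5; exact permutation p = 0.175, adjusted p = 0.476). Their difference of -0.45 was -0.28 without LPS-ALI 1 and -0.30 without TMAO 5. H2-Ob to H2-DMb1 was -4.48 ± 0.58 and -4.02 ± 1.54 (exact permutation p = 0.595, adjusted p = 0.889) and rests on the few fragments of H2-Ob. Its difference of 0.45 was 0.080 without TMAO 1, 0.18 without LPS-ALI 1, 0.28 without TMAO 4 and 1.09 without TMAO 3. The smallest p that 4 against 5 libraries can give is 0.00794. The 16 tested genes of the constitutive proteasome and the other activators, Psme3 and Psme4, all lay below the median gene too, at a median of -0.22, and 0 of them passed the test.

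**Figure D3:**
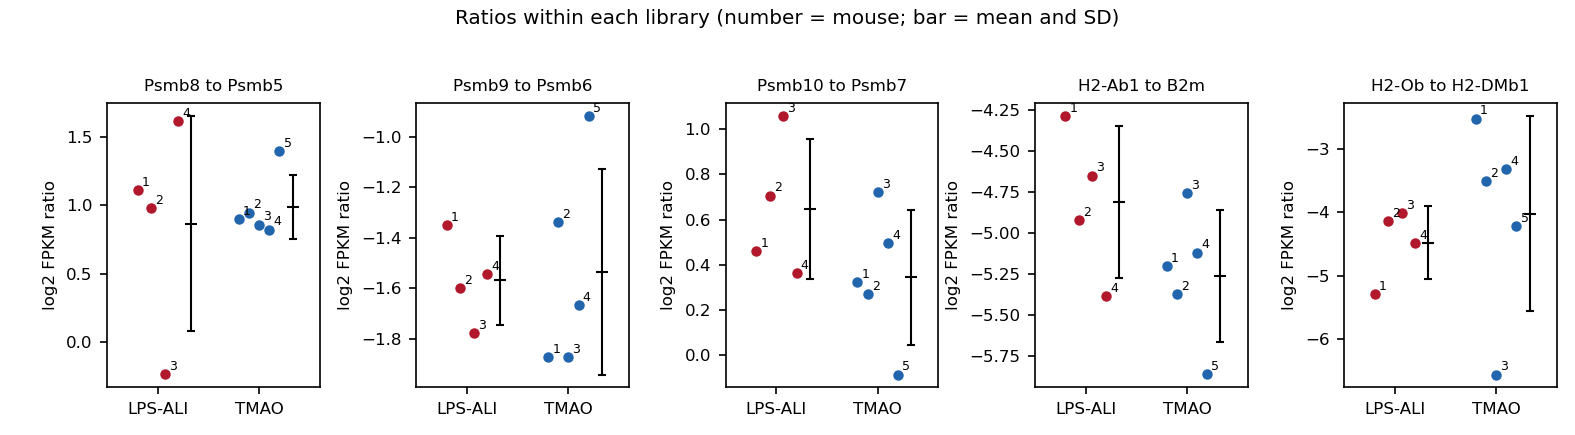
Log2 FPKM ratios within each library, with the number of the mouse beside its point and the group mean and SD as a bar (LPS-ALI n = 4, TMAO n = 5). The groups overlap in all 5 ratios, and for Psmb8 to Psmb5 LPS-ALI 3 lies apart at -0.24.

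Among the regulators, Nlrc5, the class I transactivator (chr8:94434356-94527272), had an FPKM of 6.45, 5.10, 6.93 and 18.44 in LPS-ALI and 2.17, 7.74, 3.66, 4.10 and 0.90 in TMAO. LPS-ALI 4 lay far above all others, TMAO 2 lay above the remaining LPS-ALI lungs, and the other 4 TMAO lungs were lower than any LPS-ALI lung. Means were 9.23 ± 6.19 and 3.71 ± 2.58 (SD, n = 4 and 5). Set against the median gene, TMAO minus LPS-ALI was -0.97 (SE 0.47; limma unadjusted p = 0.0284, adjusted p = 0.998). It was -0.64 without LPS-ALI 4 and -0.48 without the X-coded libraries.

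Irf8, a factor of myeloid and dendritic cell development (chr8:120736358-120756694), had an FPKM of 6.09, 5.10, 5.72 and 25.43 in LPS-ALI and 2.46, 5.01, 3.82, 5.44 and 1.10 in TMAO. LPS-ALI 4 again stood far above, and TMAO 4 overlapped the rest of the LPS-ALI group. The relative difference was -0.98 (SE 0.48; limma unadjusted p = 0.0312, adjusted p = 0.998), and -0.52 without LPS-ALI 4. Relative to the median gene of its own library, Irf8 lay at -0.21, -0.27, -0.019 and 1.75 in LPS-ALI and at -0.95, -0.43, -0.58, -0.66 and -0.67 in TMAO, without overlap. On that scale Psmb10 and H2-M3 did not overlap either, whereas Psme2 did, since TMAO 5 lay level with LPS-ALI 1 to 3. Of all tested genes, 1.7% had no overlap on that scale with the lower values in TMAO and 1.72% with the higher.

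Irf1, which interferon gamma induces and which binds interferon response elements, had an FPKM of 39.94, 34.47, 22.73 and 60.94 in LPS-ALI and 36.31, 38.72, 42.57, 50.09 and 10.89 in TMAO. Apart from TMAO 5 at the bottom and LPS-ALI 4 at the top, the lungs of both groups were mixed. Its relative difference was -0.042 (limma adjusted p = 0.998), and 0.014 and 0.049 under median-of-ratios scaling and quantile normalization.

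**Figure D4:**
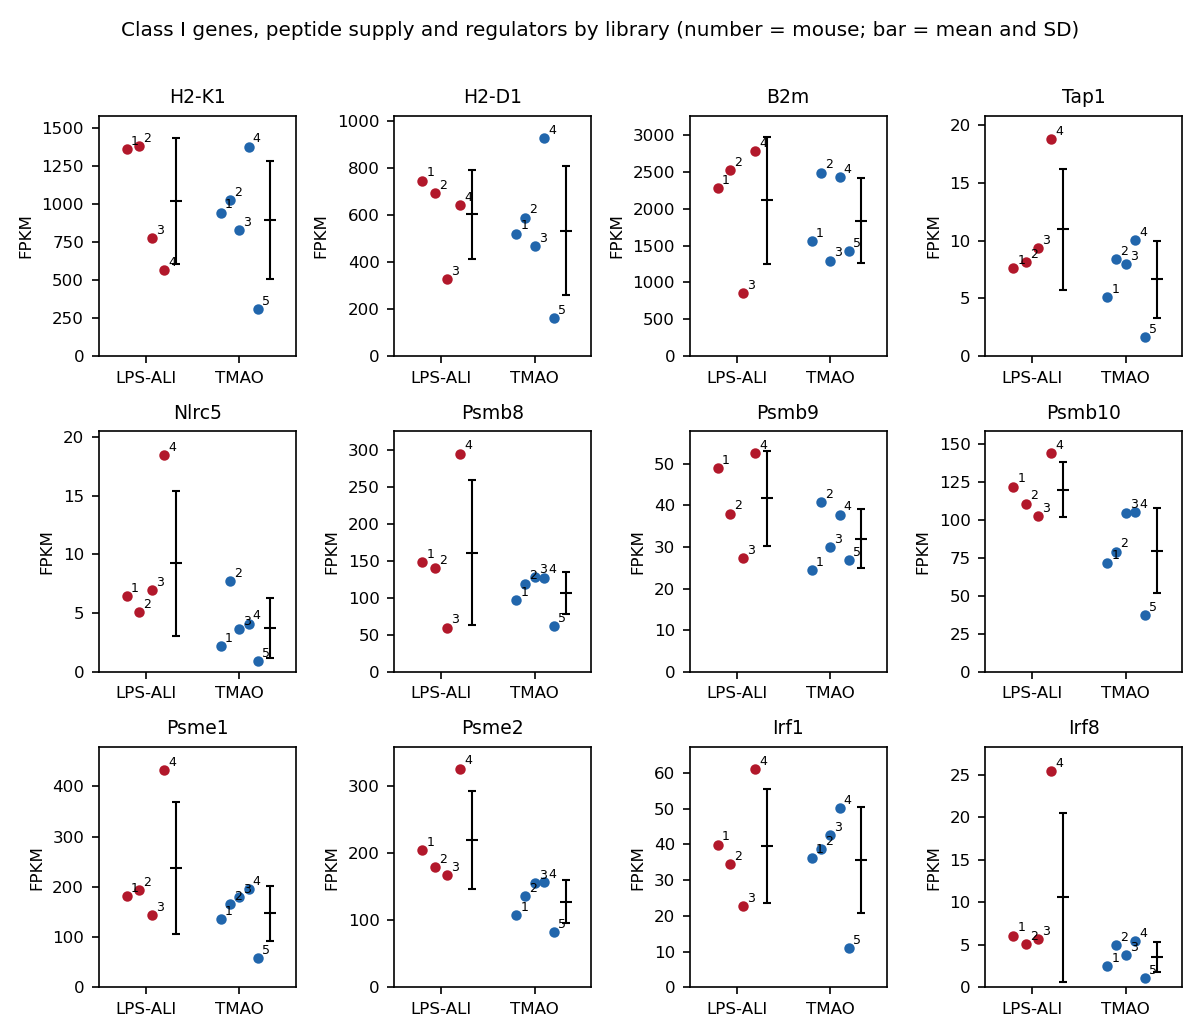
FPKM of 10 class I genes and of Irf1 and Irf8 in each library, with the number of the mouse beside its point and the group mean and SD as a bar (LPS-ALI n = 4, TMAO n = 5); each axis starts at 0. LPS-ALI 4 is the highest lung for every gene shown other than H2-K1 and H2-D1, and the groups do not overlap for Psme2.

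The libraries differed in which genes were high. The mean of the 6 tested class II genes, in log2 units above the median gene of the library, was 2.96, 2.66, 1.74 and 2.79 in LPS-ALI 1 to 4 and 1.87, 2.37, 2.08, 1.81 and 2.56 in TMAO 1 to 5. LPS-ALI 3 was the lowest of all and TMAO 5 lay with the LPS-ALI lungs, so the groups overlapped. The group means were 2.54 ± 0.54 and 2.14 ± 0.32 (SD, n = 4 and 5), and their difference of -0.40 was -0.67 without the X-coded libraries. For the 19 class I genes the same measure was 3.29, 3.34, 2.84 and 3.42 in LPS-ALI and 2.93, 3.06, 2.98, 3.12 and 2.74 in TMAO. Only LPS-ALI 3 of its group lay within the TMAO range. LPS-ALI 4 was the highest library for 11 of the 31 genes on this scale and LPS-ALI 3 the lowest for 9.

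**Figure D5:**
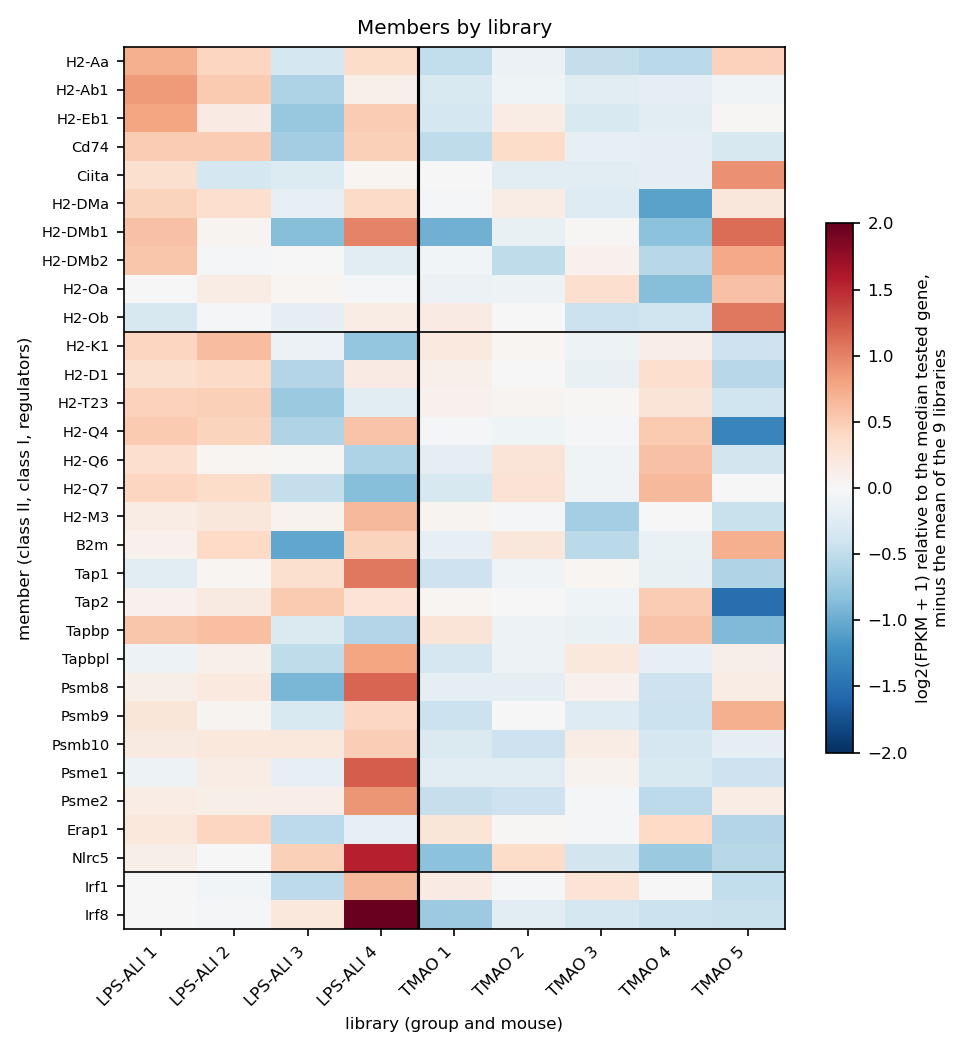
Each of the 31 antigen presentation genes (rows: class II, class I, regulators) in each of the 9 libraries (columns), as log2(FPKM + 1) relative to the median tested gene of the library, minus the mean of the gene over the 9 libraries; red is higher and blue lower. LPS-ALI 4 holds the highest value of 11 genes and LPS-ALI 3 the lowest of 9; genes near 0 FPKM, such as Ciita, appear high in TMAO 5, whose median gene was lowest.

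The genes whose pattern over the 9 libraries was most like that of Nlrc5, by Pearson correlation of the relative level, were Zfp950 (r = 0.97), Nifk (0.96), Rgs1 (0.95), Surf4 (0.95) and Ifi207 (0.94). Among the members r with Nlrc5 ran from 0.93 for Irf8 and 0.88 for Tap1 to -0.48 for H2-K1 and -0.55 for H2-Q7, and Nlrc5, Irf8 and Tap1 share LPS-ALI 4 as their highest library. For Ciita the genes were Zbed4 (0.98), Card19 (0.97), H2-Q10 (0.97), Ccdc93 (0.96) and Gm11496 (0.96). Ciita, near 0 FPKM, was highest on this scale in TMAO 5, whose median gene was lowest. Among tested class II genes r with Ciita ran from 0.66 for H2-DMb1 to -0.073 for Cd74, and in the class I list it ran from 0.75 for Psmb9 to -0.84 for Tap2. These correlations are over 9 libraries that share their depth and composition, and they are descriptions.

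Other genes of the pathway were taken from lists. None of their genes passed the limma test, and the share called among all tested genes was likewise 0%. Of 7 class II regulators, the RFX complex, NF-Y and Creb1, which bind the X and Y boxes, 5 lay below and 2 above the median gene, with a median of -0.17. The lowest was Rfx5 at -0.26. Of 8 genes of endosomal processing 6 lay below and 2 above, with a median of -0.15. Ctss, the cathepsin that degrades the invariant chain, had means of 65.1 ± 33.5 FPKM in LPS-ALI and 40.4 ± 17.01 in TMAO (SD, n = 4 and 5), and a relative difference of -0.54. Its highest value, 114.5, was in LPS-ALI 4, and the other lungs of both groups overlapped.

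The 4 chaperones of the endoplasmic reticulum that help class I folding lay 2 below and 2 above, at a median of 0.018. Of 11 further class I and class I-like genes, 7 were tested, with 4 below, 3 above and a median of -0.014. H2-Q2 ranged from 1.09 to 6.71 FPKM in LPS-ALI and from 0 to 1.83 in TMAO, with a relative difference of -0.69 (limma unadjusted p = 0.0476, adjusted p = 0.998). Its values overlapped between the groups. Mr1, which presents vitamin B metabolites, lay the other way at 0.72, with 2.41 ± 1.02 and 3.92 ± 1.17 FPKM (SD, n = 4 and 5; limma adjusted p = 0.998). The 4 costimulatory genes all lay below, with a median of -0.35, led by Cd80 at -0.50.

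Interferon gamma itself was near the limit of detection, with 0 to 0.71 FPKM for Ifng in LPS-ALI and 0 to 0.11 in TMAO. Of 7 tested genes of its receptor and signal route 4 lay below and 3 above, with a median of -0.053. The receptor chains Ifngr1 and Ifngr2 lay at 0.43 and 0.58. Socs1, the feedback inhibitor of the route, ranged from 1.38 to 2.37 FPKM in LPS-ALI and from 0.71 to 1.31 in TMAO. Its relative difference was -0.18. The FPKM of Socs1 did not overlap, as in 1.36% of all tested genes with the lower values in TMAO. Relative to the median gene of each library the groups overlapped, since TMAO 5 lay highest.

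Markers of cells that carry class II or could bring interferon were read in the same libraries. The summed FPKM of 9 dendritic cell markers was 9.93 to 29.2 in LPS-ALI and 7.31 to 38.3 in TMAO, and 3 of the 4 tested markers lay above the median gene. Their mean level relative to the median gene was 0.43 higher in TMAO, and the difference was -0.11 without the X-coded libraries. That of 10 B cell markers was 9.02 to 16.5 and 4.50 to 14.1, with 3 of 3 tested below. That of 8 alveolar macrophage markers was 203 to 329 and 58.95 to 244, with 6 of 7 tested below and a median of -0.38. The difference of their mean level was -0.38, and that of the class II genes was -0.40. Without the X-coded libraries these differences were -0.17 and -0.67. No list had a marker at 0 in all libraries.

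The sum of 10 monocyte and interstitial macrophage markers was 137 to 154 in LPS-ALI and 68.9 to 155 in TMAO, with 5 of 8 tested below. The sum of 10 T and NK cell markers was 30.2 to 84.9 in LPS-ALI and 9.74 to 21.2 in TMAO, without overlap. Most of it was Gzma, Gzmb and Nkg7, the 3 tested markers, which all lay below with a median of -1.20. Gzma and Gzmb did not overlap by themselves, against 1.36% of all tested genes with the lower values in TMAO. The difference of the mean level of the 3 was -1.26, and -0.78 without the X-coded libraries. Cd3e, Cd3d, Cd8a, Cd4, Ncr1, Klrb1c and Prf1 did not pass the filter on low values. Their highest values lay in LPS-ALI lungs for Cd3e (1.03 FPKM), Cd3d (3.43), Cd8a (0.83), Ncr1 (0.56), Klrb1c (1.8) and Prf1 (1.71). That of Cd4, 0.77 FPKM, lay in TMAO 4. LPS-ALI 4 stood apart here too, with 27.8 FPKM of Gzmb against 4.99 to 8.96 in the other LPS-ALI lungs. The 8 alveolar type 2 markers lay above the median gene in TMAO at a median of 0.31, but LPS-ALI 4 held the lowest sum of all libraries, 1106, and without the X-coded libraries the difference of their mean level was -0.60. The 8 endothelial markers lay 7 above and 1 below, at a median of 0.53, and their mean level differed by 0.0039 without the X-coded libraries. The part of these cell types in the values of the antigen presentation genes was not tested.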

How the data were processed

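RNA of 9 mouse lungs was depleted of ribosomal RNA, per the labels' protocols. The genome build mm10 and the tools fastp, HISAT2, SAMtools and featureCounts are named in the submitters' processing notes. Versions, annotation, strand setting and gene lengths are not named there. The authors deposited FPKM with 2 decimals, 1 column per library, so a count model was not used.

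Genes that reached an FPKM of 1 in 4 or more libraries were tested as log2(FPKM + 1), in two-sided tests of limma 3.58.1 under R 4.3.3 (mean-variance trend on), with Benjamini-Hochberg adjustment over all 11817 tested genes and a threshold of 0.05. The titles number separate mice within each group. The 5 ratios were tested by exact permutation over 126 splits. Coordinates, exon lengths and shared windows come from GENCODE M21 (GRCm38, the assembly of mm10), which matched 52125 of 52381 genes. No pair of libraries had more than 63 equal values, so none was a copy of another.

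The members and lists were chosen with earlier results of these data known. By rule, every member is named, with all 9 values for H2-Aa, H2-Ab1, H2-Eb1, Cd74, Ciita, H2-K1, H2-D1, B2m, Tap1, Nlrc5, Psmb8, Psmb9, Irf1, Irf8 and the 4 class I and 4 class II members with the smallest unadjusted p. Each pathway list gives up to 3 genes with the smallest p. The result of 1 gene is not reported here. Gzmb and Ifngr1 were added after their values were seen. Alternatives covered scaling, pseudocounts of 0.1 and 0.5, filters, the variance model, a replicate block, repeated symbols and left-out libraries. The fit was tested on simulated data. Python 3.11.15 with pandas 2.3.3 made the tables, and matplotlib 3.10.9 drew the figures.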

Additional observations from a re-analysis of the deposited data

Results flagged for a closer look

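Of 72 sets of values checked (each member and each ratio in each group), 7 held a library far from the others of its group by Dixon's criterion, which chance meets in about 1 in 20. LPS-ALI 4 was high for 3 genes. Tap1 had 18.8 FPKM against 7.6 to 9.34 in the other LPS-ALI lungs, Nlrc5 18.44 against 5.10 to 6.93, and Irf8 25.43 against 5.10 to 6.09. LPS-ALI 3 was low for the invariant chain Cd74, with 99.6 FPKM against 249.66 to 279.1. For the low class II genes, H2-DMb2 had 2.45 FPKM in LPS-ALI 1 against 0.94 to 1.04, and Ciita had 0.90 FPKM in TMAO 4 against 0.33 to 0.48 in the other TMAO lungs. The log2 ratio of Psmb8 to Psmb5 was 1.39 in TMAO 5 against 0.82 to 0.95.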

How the results depend on the processing

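No member passed an adjusted p of 0.05 under any alternative. The smallest limma adjusted p of a member, 0.0957 for H2-Aa, came with library weights, under which 51 of all tested genes passed; without 1 library, 0 to 3 genes did (1 without LPS-ALI 3, 3 without TMAO 4). The class II median difference of -0.38 ran from -0.66 to -0.24 and the class I median of -0.19 from -0.34 to -0.12. Genes with an unadjusted limma p under 0.05 were 50 higher and 346 lower in TMAO, against 363 and 428 under median-of-ratios scaling, 441 and 450 under quantile normalization, 581 and 1053 with library weights, and 504 and 345 without TMAO 5.

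Sign changes occurred for members and ratios with differences between -0.25 and 0.24. TPM rescaling gave -0.017 for H2-T23, median-of-ratios scaling 0.014 for Irf1, quantile normalization 0.074 for H2-K1 and 0.049 for Irf1, and a pseudocount of 0.1 gave 0.012 for Irf1. No filter on low values gave -0.12 for H2-T23, -0.022 for H2-Q6, -0.074 for B2m and -0.097 for Erap1. Library weights gave -0.28 for H2-T23, -0.014 for H2-Q6, -0.22 for H2-Q7, -0.39 for B2m, -0.18 for Erap1 and 0.19 for Irf1. Without the X-coded libraries the values were -0.47 for H2-T23, -0.14 for H2-Q6, -0.29 for H2-Q7, -0.22 for B2m, -0.30 for Erap1, 0.011 for Irf1, -0.061 for the ratio of Psmb8 to Psmb5 and -0.059 for that of Psmb9 to Psmb6. Without LPS-ALI 4 and TMAO 5 together they were 0.030 for H2-D1, 0.071 for Tapbpl, 0.027 for Psmb8, 0.29 for Irf1 and -0.11 for Psmb9 to Psmb6.

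Without 1 library at a time, H2-K1 ran from -0.36 to 0.12, H2-D1 from -0.34 to 0.024, H2-T23 from -0.23 to 0.16, H2-Q6 from -0.11 to 0.23, H2-Q7 from -0.020 to 0.43 and B2m from -0.28 to 0.19. Tapbp ran from -0.37 to 0.097, Tapbpl from -0.31 to 0.090, Psmb8 from -0.59 to 0.070, Erap1 from -0.13 to 0.20 and Irf1 from -0.21 to 0.15. The ratio of Psmb8 to Psmb5 ran from -0.25 to 0.37 and that of Psmb9 to Psmb6 from -0.12 to 0.12. The cause of these changes was not tested.

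Whether the mouse numbers pair lungs across the groups is not stated. Same-numbered lungs correlated at -0.13 to 0.064 in their deviations from the group means, and the best-matching partners at 0.045 to 0.29. Correlations over so few libraries cannot show whether the samples were paired. With the mouse number as a replicate block, which drops TMAO 5 for want of a partner, 0 genes passed, and H2-K1 was 0.059, H2-D1 0.025, B2m -0.094, Tapbp 0.099, Irf1 0.11 and the ratio of Psmb9 to Psmb6 -0.12. Depth limits Ciita, H2-Oa, H2-Ob and H2-DMb2, which rest on an estimated 0 to 65 fragments per library. Some tested genes were as low in TMAO 5, with an estimated 10 fragments for Tap2 and 11 for H2-M3. Nlrc5 and Tapbpl had 34 there, Irf8 35, H2-DMa 40, Tap1 41, Erap1 42 and H2-DMb1 56.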
